A study of Mus musculus with 36 samples.

Results

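The genes described are the 31 cholesterol and fatty acid synthesis genes of a mouse RNA-seq series, out of 20958 gene names in its 3 expression tables. They were chosen by name, but with earlier results of these data known, so the choice may not be independent of their values. They were split by role into 18 genes of the sterol branch (Hmgcs1, Mvk, Pmvk, Mvd, Idi1, Fdps, Fdft1, Sqle, Lss, Cyp51, Tm7sf2, Msmo1, Nsdhl, Hsd17b7, Ebp, Sc5d, Dhcr7 and Stard4), 3 regulators (Srebf1, Srebf2 and Insig1) and 10 genes of the fatty acid branch (Acly, Acss2, Acaca, Fasn, Elovl6, Scd1, Scd2, Fads1, Fads2 and Lpin1). All 31 were present in each table and passed the filter on low values there. The series asks how TGFβ and the zinc finger transcription factor RREB1 act on cells in development and in cancer, and 20 of its 36 samples are expression libraries. The 15 ChIP-seq samples and the 1 ATAC-seq sample were not analysed here.

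The libraries came from 3 culture systems. KSIC_806, a pancreatic ductal adenocarcinoma (PDA) cell line, was labelled WT or KO for Rreb1 and treated either with SB505124, which blocks type I receptors of the TGFβ pathway (2.5 µM, 6 h), or with TGFβ itself (100 pM for 1.5 h); each of the 4 groups has 2 libraries. E14 cells, a mouse embryonic stem cell line, carried the label WT or KO and were taken at day 0 and as embryoid bodies (EBs), aggregates in which stem cells differentiate, at day 4, again with 2 libraries in each of 4 groups. CIY organoids of pancreatic epithelial cells received SB505124 or TGFβ at those doses and times, with or without doxycycline (dox, 1 µg/mL, added at plating), with 1 library per condition. What dox drives in the organoids, the meaning of the mark S4 on all PDA libraries, and how many lines or clones stand behind each genotype label are not stated in the sources used. The exposures differ in length, so each TGFβ comparison carries both agent and time. A KO against WT difference cannot be told apart from any other difference between the lines. Nothing in the labels says that replicates were grown apart, so a p-value here is set against the spread between the deposited libraries, which may be technical.

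Cells make cholesterol from acetyl-CoA through mevalonate, isoprenoids, squalene and lanosterol, and make fatty acids from the same acetyl-CoA by carboxylation, chain building, elongation and desaturation. Most of these enzyme genes are targets of the SREBP transcription factors, the products of Srebf1 and Srebf2. When membranes hold enough sterol, INSIG proteins keep the SREBP precursors in the endoplasmic reticulum. When sterol runs low the precursors are cut and the freed factors enter the nucleus, with SREBP2 acting mostly on sterol genes and SREBP1 mostly on fatty acid genes. Growing stem and tumour cells are known to use both branches for new membrane. The transcript levels below measure none of the protein, its cleavage or the lipids.

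Values are the authors' normalized read counts per gene and library, and fold changes are on the scale of log2(value + 1) with their standard error (SE). A change was called at an adjusted p under 0.05 in limma with Benjamini-Hochberg adjustment over all genes tested, and every adjusted p below is of this kind unless another tool is named. Gene lengths were not used, so levels of different genes are not ranked. Depth, in reads ×1e6 counted in genes, was 38.73 to 44.5 in 7 PDA libraries and 20.41 in KO SB505124 replicate 1, 19.89 to 29.08 in the E14 libraries and 23.91 to 35.81 in the organoids. The replicates of the PDA WT SB505124 group and of the PDA KO TGFβ group stood apart from each other, with a chi-square per gene of 48.5 and 39.2 against 1.94 to 11.2 in the other 6 groups. Among the members, 5 (Fasn, Mvd, Mvk, Srebf1 and Srebf2) were split in both groups, lower in replicate 1 than in replicate 2 of WT SB505124 and lower in replicate 2 than in replicate 1 of KO TGFβ. The Rreb1 transcript was not at background in any library labelled KO: its mean was 1480 and 4252 in WT PDA cells under SB505124 and TGFβ, 2180 and 2723 in those labelled KO, 1052 and 1534 in WT E14 cells at day 0 and day 4, and 2736 and 1716 in those labelled KO. KO is therefore used below as a label alone. All 6 pluripotency markers were expressed in the E14 cells at day 0, with a sum of 101815 to 119965, and all 7 pancreatic epithelial markers in the PDA cells and organoids. In the PDA cells 6 fibroblast markers summed to 73.9 to 433.6 and 4 leukocyte markers to 98.2 to 148.8.

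**Figure D1:**
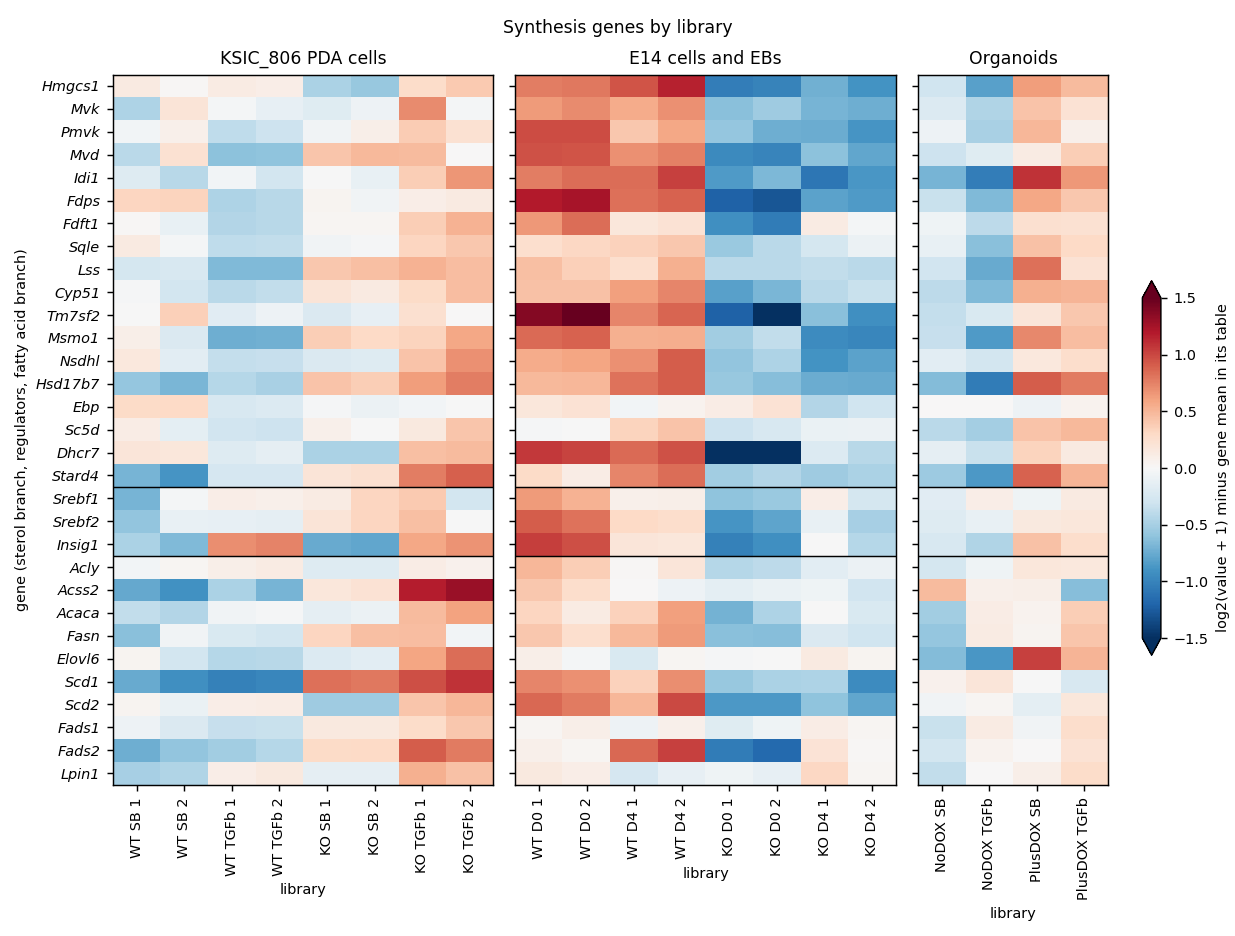
Heat map of the 31 genes (rows: sterol branch, regulators, fatty acid branch, parted by lines) in the 20 libraries (columns), as log2(value + 1) minus the gene's mean in its table. In the E14 panel the WT columns are mostly red and the KO day 0 columns mostly blue, and in the PDA panel the KO TGFβ columns are the reddest for most genes.

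Nearly every synthesis gene was lower in the E14 stem cells labelled KO than in WT at day 0, before differentiation. Of the 18 sterol genes 17 were lower in the cells labelled KO, none was higher, and 13 were lower by 2-fold or more, with a median log2 fold change of −1.28. All 3 regulators and 8 of 10 fatty acid genes were lower as well, the latter with a median of −0.82. Over all 15227 genes tested in this contrast 33.9% were called higher, 33.3% lower, and 13.7% were called lower by at least 2-fold, and the median was −0.001. The calls covered 28 of the 31 members, and the fitted difference was negative for all 31.

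The mevalonate steps were lower at both ends. Hmgcs1, whose enzyme makes HMG-CoA at the entry of the pathway (chr13:119690351-119708260), was at 9053 and 9158 in the WT day 0 libraries and at 2595 and 2656 in the KO ones. The groups lay far apart, and the level was 3.47-fold lower (log2 −1.79 ± 0.08 SE, adjusted p = 3.5e-10). Mvk, Pmvk and Mvd, which phosphorylate mevalonate and then remove its carboxyl group, were lower by 2.38-fold, 3.11-fold and 3.8-fold. Idi1, the isomerase that readies the isoprenoid building block, was at 474.3 and 495.4 in WT and at 153.5 and 174 in KO (−1.56 ± 0.13, adjusted p = 1e-07). Fdps, which joins these blocks into farnesyl diphosphate (chr3:89093588-89101967), was at 3733 and 3866 in WT and 704.9 and 672.1 in KO. It fell by 2.46 ± 0.07 on the log2 scale (5.51-fold lower, adjusted p = 6.94e-12).

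From squalene onward the size of the difference varied more. Fdft1, squalene synthase, was at 3252 and 3682 in WT and 1091 and 1000 in KO (−1.73 ± 0.08, adjusted p = 5.66e-10). Sqle and Lss, which make the epoxide of squalene and close it into lanosterol, were lower by only 1.7-fold and 1.75-fold. Cyp51, Msmo1, Nsdhl and Hsd17b7, which strip methyl groups from lanosterol, were lower by 2.14-fold to 2.47-fold. The sterol reductase gene Tm7sf2 (chr19:6062821-6067850) was at 417.7 and 471.2 in WT and 68.7 and 45.9 in KO (−2.96 ± 0.19, 7.78-fold lower, adjusted p = 8.31e-09). Dhcr7, the reductase of the closing step to cholesterol (chr7:143823167-143848410), was at 2257 and 2175 in WT and 328.3 and 371 in KO (−2.66 ± 0.09, adjusted p = 2.81e-11). Tm7sf2 and Dhcr7 thus showed the largest falls of the 31. The desaturase gene Sc5d was lower by 1.2-fold (adjusted p = 0.0164), a call that ended without WT day 0 replicate 1 (0.0672), WT day 0 replicate 2 (0.0769) or KO day 0 replicate 1 (0.0923). The sterol isomerase gene Ebp was the only sterol gene that was not called, at 662.8 and 688 in WT and 639.6 and 687.4 in KO (adjusted p = 0.817). Stard4, which codes for a carrier protein that moves sterol between membranes, was lower by 1.6-fold (adjusted p = 5.9e-06).

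The regulators were lower with their targets. Srebf2, which encodes the sterol-acting SREBP (chr15:82147269-82205379), was at 10496 and 9795 in WT and 3016 and 3216 in KO (−1.70 ± 0.10, 3.25-fold lower, adjusted p = 3.39e-09). Srebf1 (chr11:60199084-60224186) was at 2497 and 2303 against 1053 and 1089 (−1.16 ± 0.10, adjusted p = 1.35e-07). Insig1, a brake on SREBP release that is itself an SREBP target (chr5:28071412-28078662), was at 3579 and 3410 against 861.8 and 920.7 (−1.97 ± 0.10, 3.92-fold lower, adjusted p = 1.51e-09). None of the 3 regulators had overlapping groups. Such separation was common at day 0 and does not mark out the regulators. It also held for 15 of 17 sterol genes and all 20 fatty acid genes tested that are not members.

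In the fatty acid branch Scd2, Scd1 and Fads2 fell most. Scd2, a stearoyl-CoA desaturase gene (chr19:44293676-44306864), was at 18897 and 17834 in WT and 5713 and 5716 in KO (−1.68 ± 0.12, adjusted p = 1.9e-08), and Scd1 was lower by 2.34-fold. Fads2, which starts the desaturation of polyunsaturated chains, was lower by 2.23-fold. Scd1 and Scd2, and Fads1 and Fads2, are paralogs, and how reads that match both members of such a pair were counted is not stated in the sources used, so the split within each pair is uncertain. Acly, Acaca and Fasn, which cleave citrate to acetyl-CoA, carboxylate it and build the chain, were lower by 1.79-fold, 1.75-fold and 1.95-fold. Acss2, which makes acetyl-CoA from acetate, was lower by 1.37-fold (adjusted p = 0.00245). The elongase gene Elovl6 was at 5053 and 4666 against 4702 and 4733 and was not called (adjusted p = 0.666), nor was Lpin1, the phosphatidate phosphatase gene (−0.22 ± 0.09, adjusted p = 0.0504). Fads1 differed little (−0.18 ± 0.07, adjusted p = 0.0491), and its call ended in DESeq2 (0.0644), without the filter on low values (0.065), and without WT day 0 replicate 1 (0.0959), replicate 2 (0.21) or KO day 0 replicate 1 (0.285).

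**Figure D2:**
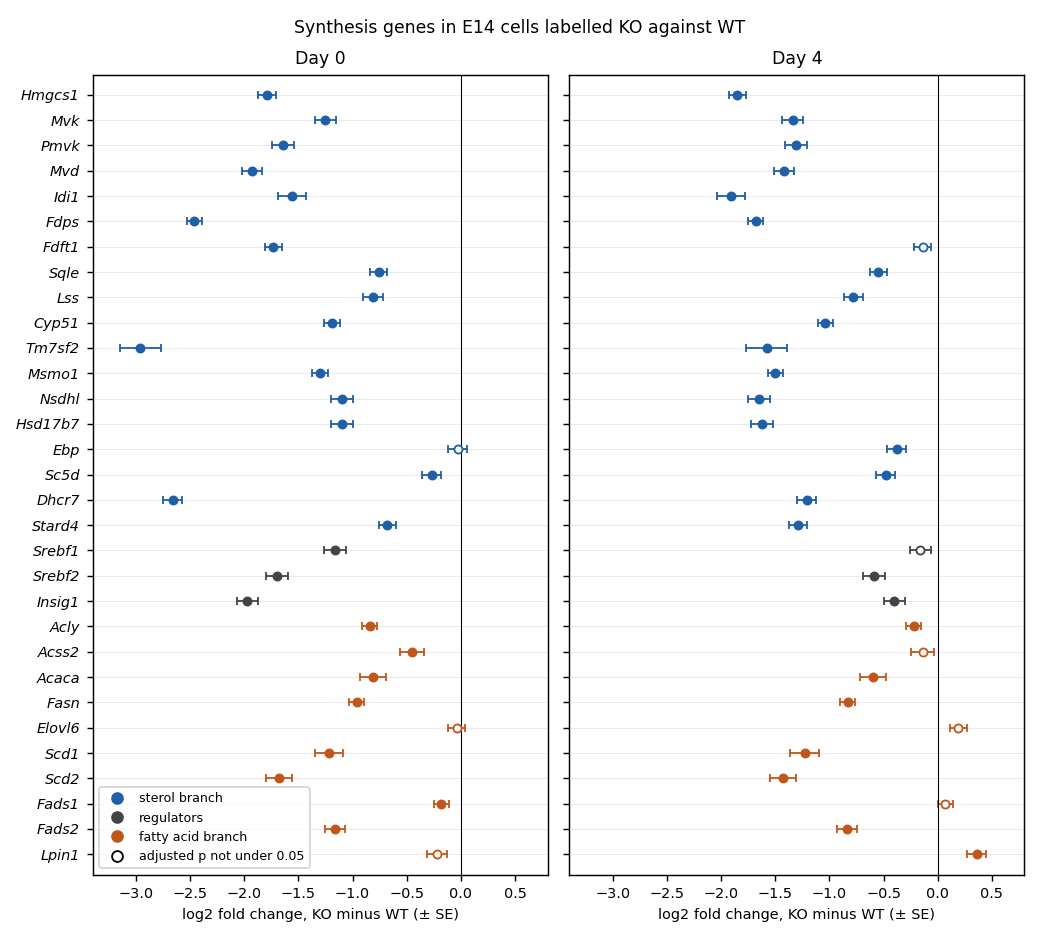
Log2 fold change of each member (rows), KO minus WT, at day 0 (left) and day 4 (right) in the E14 table; points are limma estimates, bars ± SE, from 2 libraries per group, and open points did not pass an adjusted p of 0.05. All 31 points lie below 0 at day 0, and Lpin1 is the only filled point above 0 at day 4.

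Because these genes moved together at day 0, their promoters were searched for sequences linked to SREBP control. RefSeq promoter windows on GRCm38.p6, the assembly named mm10, hold 250 bases before a start site and 50 after it, and 24 of the 31 members matched by symbol. The motifs were the sterol regulatory core TCACNCCAC, the CCAAT box bound by NF-Y, the GC box GGGCGG bound by SP1 and the E-box CACGTG, on both strands. None of the 4 contains another. CCAAT was present for 20 of the 24 members (83.3%, against 41.1% of 27025 genes with a window) and GGGCGG for 19 (79.2%, against 38.2%). CACGTG was present for 4 (16.7%, against 8.09%) and the sterol core for 1, Hmgcs1 (4.17%, against 1.44%). CCAAT was in the windows of all 14 sterol genes and all 3 regulators that matched, and in 3 of 7 fatty acid genes. Acaca, Elovl6, Fads2 and Lpin1 had no CCAAT. Of these, Acaca and Fads2 were called lower at day 0 and Elovl6 and Lpin1 were not called, nor was Ebp, which has one. The comparison shares cover all genes with a window, expressed or not, and the part of any motif in the day 0 differences was not tested. A match is a run of letters and not a measured site. The 250 bases before the start of 4 members are given below on the plus strand in lower case, with matches to the 4 motifs in capitals; ATTGG is CCAAT and CCGCCC is GGGCGG read on the other strand. Hmgcs1 is shown for its sterol core, Nsdhl for a plain CCAAT and GC box promoter, Insig1 for the E-box, and Elovl6 as a member without a match.
Hmgcs1, chr13:119690101-119690350: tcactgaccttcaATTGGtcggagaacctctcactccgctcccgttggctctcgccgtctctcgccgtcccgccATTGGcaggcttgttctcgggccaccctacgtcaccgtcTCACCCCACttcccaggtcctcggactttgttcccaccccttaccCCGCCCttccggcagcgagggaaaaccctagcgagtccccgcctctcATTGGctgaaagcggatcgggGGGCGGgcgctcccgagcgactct
Nsdhl, chrX:72918271-72918520: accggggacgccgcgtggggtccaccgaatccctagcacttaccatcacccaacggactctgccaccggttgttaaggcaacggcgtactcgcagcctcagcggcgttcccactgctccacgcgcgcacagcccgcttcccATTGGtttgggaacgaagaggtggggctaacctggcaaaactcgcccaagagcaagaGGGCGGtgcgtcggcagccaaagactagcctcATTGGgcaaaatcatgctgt
Insig1, chr5:28071162-28071411: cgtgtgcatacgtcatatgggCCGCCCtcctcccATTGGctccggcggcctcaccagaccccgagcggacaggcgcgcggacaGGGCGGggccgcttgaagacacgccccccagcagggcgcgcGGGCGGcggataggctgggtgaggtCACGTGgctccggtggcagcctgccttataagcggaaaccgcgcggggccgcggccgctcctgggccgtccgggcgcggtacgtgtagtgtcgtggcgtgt
Elovl6, chr3:129532136-129532385: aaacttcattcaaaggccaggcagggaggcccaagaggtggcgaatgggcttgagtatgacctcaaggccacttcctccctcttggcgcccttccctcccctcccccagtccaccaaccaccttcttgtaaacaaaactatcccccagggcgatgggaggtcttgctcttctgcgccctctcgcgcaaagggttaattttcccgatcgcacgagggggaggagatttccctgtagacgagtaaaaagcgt
Counted from the start site, the sterol core of Hmgcs1 spans −137 to −129. It stands between CCAAT boxes read on the minus strand at −176 to −172 and at −45 to −41.

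At day 4 the sterol branch was still lower in the EBs labelled KO, with 17 of 18 genes called lower and 13 by 2-fold or more (median −1.32), against 28.4% and 11.1% of all genes, with 27.8% called higher. The regulators and the fatty acid branch differed less than at day 0, with 2 of 3 regulators lower (median −0.40) and 6 of 10 fatty acid genes lower and 1 higher (median −0.41). Hmgcs1 was at 10171 and 11769 in WT and 3228 and 2840 in KO (−1.85 ± 0.08, adjusted p = 2.16e-10). Idi1, Fdps, Nsdhl and Hsd17b7 were lower by 3.76-fold, 3.21-fold, 3.13-fold and 3.07-fold. Fdft1 was the exception in the branch, at 2317 and 2401 in WT and 2255 and 2023 in KO (−0.14 ± 0.08, adjusted p = 0.151). Ebp, not called at day 0, was lower at day 4 (−0.38 ± 0.09, adjusted p = 0.00314). Srebf2 was at 6840 and 6722 in WT and 5170 and 3948 in KO (−0.59 ± 0.10, adjusted p = 0.000148), with the KO libraries apart from each other but both below WT. Srebf1 was at 1691 and 1713 in WT and 1727 and 1341 in KO, which overlapped (adjusted p = 0.176). Scd2 was lower by 2.69-fold and Fasn by 1.77-fold. Lpin1 was higher (0.36 ± 0.09, adjusted p = 0.00433), a call that ended without WT day 4 replicate 1 (0.0705) or KO day 4 replicate 1 (0.0514). The Insig1 call (−0.40 ± 0.10, adjusted p = 0.00459) ended without WT day 4 replicate 1 (0.061), replicate 2 (0.0552) or KO day 4 replicate 2 (0.0501), and the Acly call (−0.22 ± 0.07, adjusted p = 0.0199) without WT day 4 replicate 2 (0.197) or KO day 4 replicate 1 (0.0748).

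The day 4 cultures also differed in the RNA of cell type markers, which was measured beside the synthesis genes. The summed level of 8 visceral endoderm markers was 12172 to 13429 in WT at day 4 and 509.3 to 553.9 in KO, that of 5 primitive streak and mesoderm markers was 3677 to 6501 against 733.3 to 745.1, and that of 6 pluripotency markers was 31633 to 32112 against 61791 to 62843. In bulk RNA, fewer cells of a type and less RNA per cell cannot be told apart, and the part of cell makeup in the day 4 values was not tested. At day 0 the visceral endoderm markers summed to 824.5 to 852.7 in WT and 637.9 to 646.3 in KO, and the primitive streak markers to 115.1 to 136.9 and 157.8 to 165.4. Endothelial markers at day 0 summed to 3252 to 3308 in WT and 6032 to 6185 in KO, and the part of these sums in the day 0 values was not tested.

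Over differentiation the regulators moved in opposite directions under the 2 genotype labels. In WT EBs all 3 regulators fell from day 0 to day 4 (median −0.58), while sterol genes were split, with 5 higher and 6 lower of 18, and fatty acid genes too, with 2 higher and 3 lower of 10. Over all genes 32.3% were higher and 30.8% lower. In the cells labelled KO all 3 regulators rose (median 0.54), 8 sterol genes rose and 3 fell, and 6 fatty acid genes rose and none fell, against 29.1% higher and 30.9% lower over all genes. Insig1 went from 3579 and 3410 to 1982 and 1962 in WT (−0.82 ± 0.10, adjusted p = 8.49e-06) and from 861.8 and 920.7 to 1727 and 1297 in KO (0.75 ± 0.10, adjusted p = 2.57e-05). Dhcr7 stayed between 1955 and 2257 in WT (−0.13 ± 0.09, adjusted p = 0.214) and rose 2.49-fold in KO (1.32 ± 0.09, adjusted p = 2.3e-08). Fads2 rose in both, by 1.86-fold in WT and 2.32-fold in KO. Leaving out 1 library of the genotype compared ended the WT calls of Mvd, Hmgcs1, Cyp51, Tm7sf2, Fasn, Acss2 and Lpin1 (adjusted p of 0.055 to 0.163). Leaving out 1 KO library, or for Fads1 and Hmgcs1 also WT day 0 replicate 1 or 2, ended the KO calls of Fads1, Hmgcs1, Sqle, Lpin1, Mvd, Tm7sf2 and Nsdhl (0.0547 to 0.269).

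The difference between these responses, KO minus WT, was tested as an interaction and called for 15 members, 11 positive and 4 negative, against 27.1% positive and 28.6% negative over all genes. All 3 regulators were positive: Insig1 at 1.57 ± 0.15 (adjusted p = 8.49e-07), Srebf2 at 1.12 ± 0.14 (1.2e-05) and Srebf1 at 1.00 ± 0.14 (3.42e-05). Positive sterol genes were Fdft1 (1.58 ± 0.12), Dhcr7 (1.45 ± 0.13), Tm7sf2 (1.38 ± 0.26), Fdps (0.78 ± 0.10) and Mvd (0.50 ± 0.12). Among these, the KO values at day 4 remained below WT for Dhcr7, Tm7sf2, Fdps and Mvd, and Fdft1 alone was not called there. Negative ones were Stard4 (−0.61 ± 0.12), Nsdhl (−0.55 ± 0.14), Hsd17b7 (−0.52 ± 0.14) and Ebp (−0.35 ± 0.13). The Ebp call (adjusted p = 0.0349) and the Fads2 call (0.0434) each ended in DESeq2 (0.0843 and 0.0702), after quantile normalization (0.0626 and 0.0673) and with several single libraries left out (0.068 to 0.119 for Ebp, 0.078 to 0.18 for Fads2). The interaction shares its libraries with the day 0 and day 4 contrasts, so it is no separate evidence for them.

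In the PDA cells labelled WT, TGFβ went with lower values of part of the sterol branch. Of 18 sterol genes 8 fell and 1 rose (median −0.35), against 17.6% lower and 19.4% higher over all 13226 genes tested, and of 10 fatty acid genes 2 rose and none fell (median 0.12). Fdps, at 7477 and 7555 under SB505124, was at 4335 and 4482 under TGFβ (−0.77 ± 0.06, 1.7-fold lower, adjusted p = 0.000104). Msmo1, a lanosterol demethylation gene, went from 13855 and 11233 to 7879 and 7950 (−0.66 ± 0.11, adjusted p = 0.00395). Ebp, Sqle, Lss, Fdft1, Pmvk and Dhcr7 fell by 1.27-fold to 1.43-fold. Hmgcs1, at the entry of the pathway, was at 7920 and 7263 and then 7848 and 7676, with overlapping groups (0.03 ± 0.07, adjusted p = 0.756). Stard4 was the sterol gene that rose, from 1352 and 1186 to 1837 and 1839 (0.54 ± 0.09, adjusted p = 0.00271). Without both WT SB505124 replicate 1 and KO TGFβ replicate 2, a setting chosen after the data were seen, 14 sterol genes fell and 2 rose. Without WT SB505124 replicate 2 the members called numbered 19 in place of 12, and without either WT TGFβ replicate they numbered 8. The calls of Fdft1 and Dhcr7 ended without WT TGFβ replicate 1 (0.0676 and 0.0875) or replicate 2 (0.0537 and 0.0526), and that of Pmvk without either of these (0.146 and 0.0893) or WT SB505124 replicate 2 (0.0701).

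Insig1 rose in both genotypes. Its level went from 3265 and 2860 under SB505124 to 7334 and 7574 under TGFβ in WT (1.29 ± 0.08, 2.44-fold, adjusted p = 2.92e-05) and from 2681 and 2637 to 6757 and 7215 in the cells labelled KO (1.39 ± 0.08, 2.63-fold, adjusted p = 1.76e-05). It was the largest rise among the 31 in either response. The difference between the responses was 0.11 ± 0.11 (adjusted p = 0.537). Srebf1 and Srebf2 were not called in either, and the sign of their estimates depended on the libraries that stood apart. Srebf2 was at 9207 and 12875 under SB505124 in WT and at 18937 and 13766 under TGFβ in KO. Without WT SB505124 replicate 1 the WT response of Srebf2 went from 0.22 to −0.02, and without KO TGFβ replicate 2 the KO response went from −0.03 to 0.20. Fasn, Mvk and Mvd have the same split replicates, and no direction is drawn for them here.

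In PDA cells labelled KO, 9 of 18 sterol genes were called higher under TGFβ than under SB505124 (median 0.30) and none lower. Of the fatty acid genes 7 of 10 were higher and none lower (median 0.58), against 20.6% higher and 18% lower over all genes. Dhcr7 went from 710 and 708.5 to 1345 and 1368 (0.93 ± 0.07, 1.91-fold, adjusted p = 6.99e-05), Hmgcs1 from 5157 and 4864 to 8727 and 9409 (0.86 ± 0.07, adjusted p = 0.000116), and Nsdhl from 2927 and 2977 to 4586 and 5487 (0.76 ± 0.12, adjusted p = 0.00204). In the fatty acid branch Scd2 went from 32152 and 32065 to 62259 and 65522 (0.99 ± 0.07, 1.99-fold, adjusted p = 4.22e-05). Acss2, the acetate-using enzyme gene, went from 438.5 and 455.2 to 881.8 and 958.3 (1.04 ± 0.11, 2.06-fold, adjusted p = 0.000412), and Elovl6 from 3154 and 3268 to 5492 and 6529 (0.90 ± 0.12, adjusted p = 0.000961). Acaca and Lpin1 rose in both genotypes, by 1.29-fold and 1.51-fold in WT and 1.57-fold and 1.53-fold in KO, and the Acaca call in WT ended without WT TGFβ replicate 1 (0.0501) or replicate 2 (0.0676). Among the KO calls, that of Pmvk (adjusted p = 0.0486) ended in edgeR (0.0982), in DESeq2 (0.125), without the filter on low values (0.0612) and without any of 6 single libraries (0.0539 to 0.253). The calls of Idi1 and Hsd17b7 ended without KO SB505124 replicate 1 (0.0505 and 0.0816), KO SB505124 replicate 2 (0.085 and 0.126) or KO TGFβ replicate 2 (0.0647 and 0.102). That of Acly ended without KO SB505124 replicate 1 (0.0641) or replicate 2 (0.059). Without both WT SB505124 replicate 1 and KO TGFβ replicate 2, 12 sterol and 9 fatty acid genes rose and none fell.

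**Figure D3:**
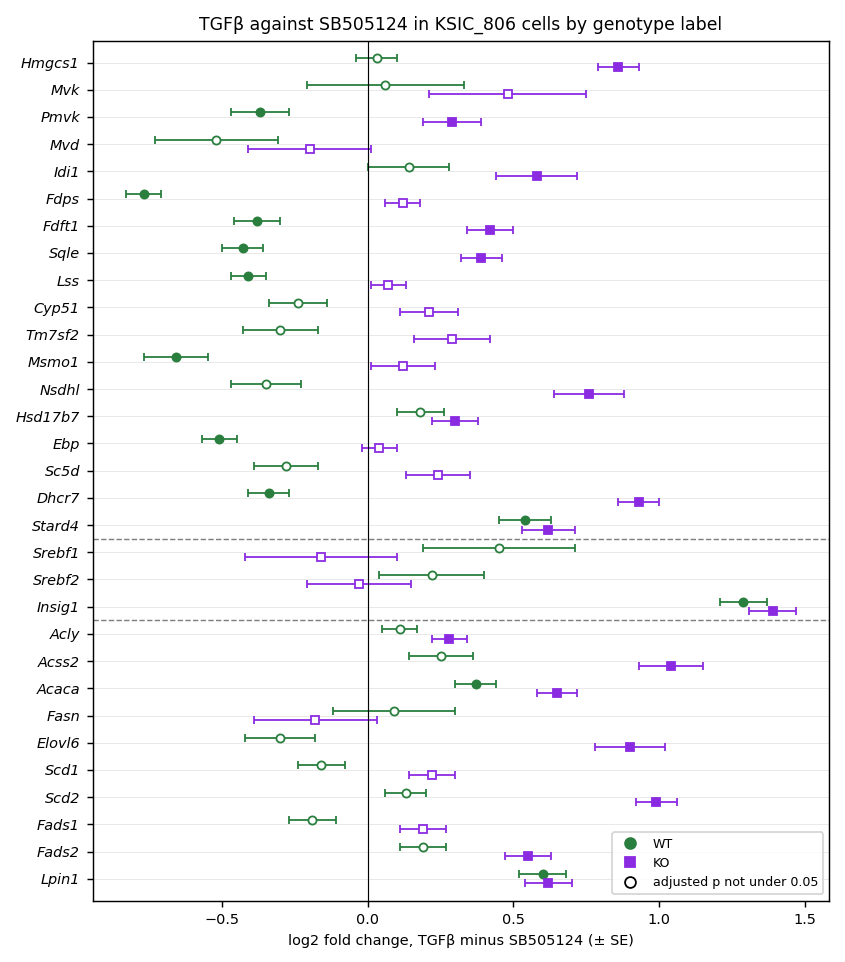
Log2 fold change, TGFβ minus SB505124, of each member (rows) in PDA cells labelled WT (circles) and KO (squares); points are limma estimates, bars ± SE, from 2 libraries per group, and open symbols did not pass an adjusted p of 0.05. The KO estimate lies to the right of the WT estimate for all 18 sterol genes, and Insig1 lies far right in both.

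The interaction tested whether these responses differed. It was called for 15 of 31 members, all with a higher response in the cells labelled KO, against 9.71% of all genes called in that direction and 12.1% in the other. Of the 18 sterol genes 10 were called, the estimate was positive for all 18 (median 0.57), and 5 of 10 fatty acid genes were called. Dhcr7 had the largest difference (1.28 ± 0.10, adjusted p = 0.0006), since it fell in WT from 1121 and 1109 to 859.8 and 898.8 and rose in KO. Elovl6 followed (1.20 ± 0.17, adjusted p = 0.004), then Nsdhl (1.12 ± 0.17, adjusted p = 0.00497), Fdps (0.89 ± 0.09, adjusted p = 0.00137) and Scd2 (0.86 ± 0.10, adjusted p = 0.0019). Without both WT SB505124 replicate 1 and KO TGFβ replicate 2 the median over the 31 members was 0.51, against 0.45 with all libraries. Leaving out WT TGFβ replicate 1, WT TGFβ replicate 2 or KO SB505124 replicate 1 gave a median of 0.47 to 0.48. Fewer members were then called, all with the same sign. The calls that ended without one of these 3 or KO SB505124 replicate 2 were those of Pmvk, Lss, Msmo1, Ebp and Acss2, at adjusted p of 0.0504 to 0.0877, and those of Scd1 and Fads1 (0.126 to 0.166), which also ended in DESeq2 (0.0619 and 0.0625) and without the filter on low values (0.0627 and 0.0541). Rescaling the libraries to the same total shifted the median of all genes by 0.11 in the KO response. In the contrast of KO with WT under SB505124 the shift was −0.154. The rescaling turned the sign of no called member, but it changed which members were called. In the KO response 24 were called in place of 17, and in the contrast under SB505124 13 of 19 calls were kept.

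Set against WT with the receptor inhibited, the PDA cells labelled KO had no common direction in the sterol branch: 5 genes were higher and 4 lower (median 0.03, and −0.13 to 0.05 over the other settings), where 28.9% and 27.2% of all genes were. Stard4 and Hsd17b7 were about 2-fold higher, at 2502 and 2598 against 1352 and 1186 and at 3037 and 2929 against 1510 and 1405. Dhcr7 was lower, at 710 and 708.5 against 1121 and 1109 (−0.65 ± 0.07, adjusted p = 0.0002), as was Hmgcs1 (−0.60 ± 0.07, adjusted p = 0.000334). In the fatty acid branch 7 of 10 genes were higher and 2 lower. The split of the calls moved with the scaling: over the 31 members 13 were higher and 6 lower, after quantile normalization 8 and 10, and after rescaling to the same total 7 and 10. The sterol branch then had 3 higher and 7 lower under both, and the fatty acid branch 5 and 4 higher and 2 lower. Scd1 (chr19:44394450-44407709) was at 15711 and 15282 against 5262 and 4679 (1.64 ± 0.08, 3.12-fold, adjusted p = 3.64e-06), while its neighbour and paralog Scd2 was at 32152 and 32065 against 47997 and 43460 (−0.51 ± 0.07, adjusted p = 0.00056). The members called fell from 19 to 12 without KO SB505124 replicate 2. Calls that ended with a single library left out (either replicate of WT SB505124, WT TGFβ or KO SB505124) were those of Acly, Cyp51, Msmo1, Srebf2, Fasn, Fads1 and Acaca, at adjusted p of 0.0564 to 0.14. All of these but Acly, and Lpin1 too, also ended after quantile normalization or rescaling to the same total (0.0521 to 0.217), and Acly ended in DESeq2 (0.11). Without both WT SB505124 replicate 1 and KO TGFβ replicate 2 the median over the 31 members was 0.22, against 0.24 with all libraries.

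Under TGFβ the PDA contrast was uniform. Of 18 sterol genes 16 were higher in the cells labelled KO (median 0.71), as were 8 of 10 fatty acid genes (median 0.63), with no member lower, against 21.2% higher and 19% lower over all genes. The sum of the 18 sterol genes was 58019 to 58360 in WT and 94319 to 101841 in KO. Msmo1 was at 16459 and 19462 in KO against 7879 and 7950 in WT (1.18 ± 0.11, adjusted p = 0.000135), and Lss, lanosterol synthase, was at 4167 and 4001 against 1825 and 1830 (1.16 ± 0.06, adjusted p = 6.56e-06). Scd1 was 4.07-fold higher, at 17347 and 18865 against 4384 and 4496 (2.03 ± 0.08, adjusted p = 1.48e-06), and Acss2 was 3.53-fold higher. The sterol genes not called were Mvk and Tm7sf2, and no regulator was called. Calls that ended with a single library left out (either replicate of WT TGFβ, KO SB505124 or KO TGFβ) were those of Hmgcs1 (adjusted p up to 0.205), Ebp (up to 0.199), Mvd (up to 0.081), Lpin1 (up to 0.0801) and Idi1 (0.0565), and those of Hmgcs1 and Ebp ended also in DESeq2 (0.0961 and 0.13) and after quantile normalization (0.217 and 0.119). Without both WT SB505124 replicate 1 and KO TGFβ replicate 2, 18 sterol and 9 fatty acid genes were higher and none lower. This contrast shares the WT and KO TGFβ libraries with the responses above. In the KO libraries 4 endothelial markers summed to 932 to 1364 against 45.9 to 60.7 in WT, with 1 of the 4 at a mean of 10 or more in either, and the part of this in the result was not tested.

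Other processes moved in the same PDA comparisons. All 10 endoplasmic reticulum stress genes fell under TGFβ in WT (median −1.96) and in KO (median −3.09), and all 10 were higher in KO than in WT under SB505124 (median 1.15). The chaperone gene Hspa5 went from 241085 and 204920 to 21864 and 21477 in WT and from 637255 and 613929 to 22119 and 24788 in KO. Of 8 cell cycle genes 5 rose in WT and 8 in KO. The 6 fibroblast markers summed to 73.9 to 91.8 under SB505124 and 388.8 to 433.6 under TGFβ in WT, and to 130.3 to 134.8 and 410.1 to 426 in KO. The part of these changes in the response of the synthesis genes was not tested.

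In the organoids, dox went with higher sterol genes under either treatment, with 1 library per condition and so without a test. Counting intervals below are exact at 95% and cover counting error only. Under SB505124, 10 of 18 sterol genes were past 1.5-fold higher with dox and none lower (median log2 0.73), against 18% higher and 18.2% lower over 13443 genes. Under TGFβ it was 13 of 18 and none lower (median 0.95), against 16.8% and 18.2%. Hmgcs1 was at 5114 without dox and 9730 with it under SB505124 (1.9-fold, interval 1.84 to 1.96) and at 3576 and 8718 under TGFβ (2.44-fold, 2.34 to 2.54). Idi1 rose from 364.5 to 1262 (3.45-fold, 3.11 to 3.86) and from 288.9 to 928 (3.2-fold, 2.8 to 3.7). Hsd17b7 and Stard4 were the other sterol genes above 2.5-fold under both. Ebp was flat in both, at 1944 and 1837 and at 1940 and 2004. Insig1 was 1.59-fold and 1.64-fold higher with dox and Srebf2 1.27-fold and 1.21-fold higher, while Srebf1 differed by 1.07-fold and 1.03-fold. Of 8 cell cycle genes 4 were past 1.5-fold higher with dox under SB505124 (median log2 0.77) and 7 under TGFβ (median 1.13), and their part in the sterol ratios was not tested.

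In the fatty acid branch Elovl6 stood apart in the organoids. It was at 714.3 without dox and 2293 with it under SB505124 (3.21-fold, 2.97 to 3.47) and at 611.4 and 1599 under TGFβ (2.61-fold, 2.37 to 2.89). Only Fasn (1.54-fold under SB505124) passed 1.5-fold higher beside it, and Acss2 was past it in the other direction under TGFβ, at 359.3 and 219.6. Few members differed between TGFβ and SB505124. Without dox, Acaca (1.55-fold) and Fasn (1.64-fold, from 7144 to 11685) were past 1.5-fold higher, against 8.44% of all genes higher and 8.02% lower, and 16 of 18 sterol genes had a negative ratio that did not reach 1.5-fold (median −0.32). With dox none was past 1.5-fold higher and 2 were lower, Lss and Acss2, where 7.74% and 7.23% of all genes were. Fibroblast markers summed to 63.1 and 38.9 without dox and 10.4 and 41.9 with it, and leukocyte markers to 829.2 and 229 without dox and 644.3 and 416.5 with it; the part of either in the dox ratios was not tested.

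**Figure D4:**
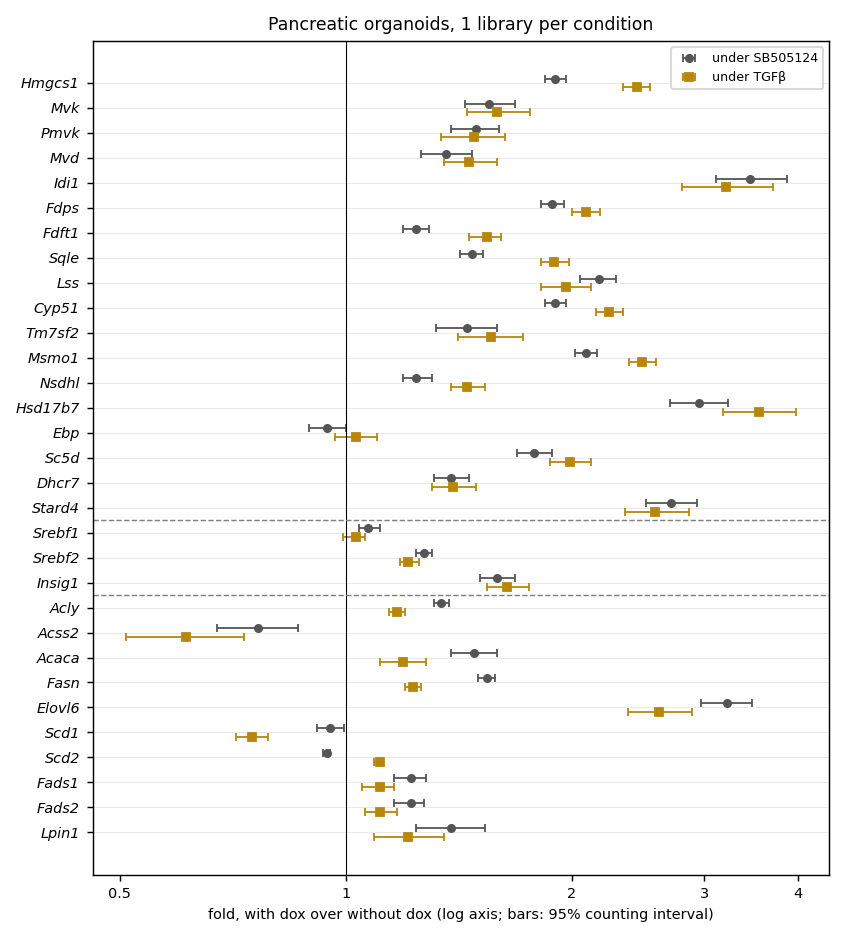
Fold of each member (rows), with dox over without dox, in organoids under SB505124 (circles) and TGFβ (squares), on a log axis; bars are exact 95% counting intervals from 1 library per condition. Idi1, Hsd17b7, Stard4 and Elovl6 lie furthest to the right, and Acss2 lies to the left of 1 under both treatments.

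Genes of the same pathways outside the 31 did not share the E14 pattern as lists. Of 17 other sterol genes (SREBP processing, later synthesis, esterification, transport) 7 were higher and 6 lower in KO at day 0 (median 0.06), and of 20 other fatty acid genes tested 8 were higher and 10 lower. Acat2, which joins acetyl-CoA units upstream of Hmgcs1, was at 1841 and 1905 in WT and 861 and 865.3 in KO (−1.12 ± 0.09, adjusted p = 5.94e-08). Slc25a1, the mitochondrial citrate carrier, fell by 1.45 ± 0.07 (adjusted p = 6.82e-10), and Tecr, a reductase of chain elongation, was lower too (−1.16 ± 0.06, adjusted p = 2.06e-09). Dgat2, which makes triglyceride, was higher, at 163.7 and 152.6 in WT and 728.6 and 742.9 in KO (2.21 ± 0.13, adjusted p = 4.59e-09). At day 4 the elongase gene Elovl7 (2.28 ± 0.10, adjusted p = 2.52e-10) and Mbtps2, a protease gene of SREBP processing (0.57 ± 0.07, adjusted p = 5.54e-06), were higher, and the acyl-CoA synthetase gene Acsl3 was lower (−1.48 ± 0.07, adjusted p = 6.94e-10). Acat2 was lower at day 4 too (−1.56 ± 0.09, adjusted p = 2.45e-09). In the PDA interaction 4 of the 17 other sterol genes were called positive and 1 negative, against 9.71% and 12.1% of all genes. Their median was 0.02, so this list as a whole did not share the members' difference. Acat2 (1.18 ± 0.11, adjusted p = 0.00119) and Tmem97, a sterol-binding protein gene (0.82 ± 0.09, adjusted p = 0.00154), were among the positive ones.

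Abca1, the sterol efflux pump induced by oxysterol-activated LXR, was measured beside the synthesis genes. In E14 cells at day 0 it was at 519.9 and 384 in WT and 2830 and 3311 in KO (2.77 ± 0.18, adjusted p = 1.26e-08), and at day 4 it was at 308.5 and 293.8 in WT and 341.8 and 209 in KO (−0.17 ± 0.18, adjusted p = 0.448). In PDA cells under SB505124 it was at 54.1 and 38.3 in WT and 231.3 and 221.2 in KO (2.29 ± 0.22, adjusted p = 0.000101). In organoids it was at 640.9 without dox and 89.3 with it under SB505124, and at 1351 and 194.7 under TGFβ. Over the 6 LXR genes 3 were higher and 2 lower in KO at day 0 in E14 cells, so there the list as a whole did not follow Abca1. In the organoids all 6, Abca1 among them, were lower with dox under either treatment. Of these, 3 were past 1.5-fold lower under SB505124 (median log2 −0.94) and 4 under TGFβ (median −1.01), against 18.2% of all genes in each.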

How the data were processed

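The 20 expression libraries were made with TruSeq RNA Sample Prep Kit v2, per the labels' protocols, which does not record strand. Per the submitters' processing notes the tools named include HTSeq 0.6.1p1, Bowtie2, DESeq2, HOMER and FastQC 0.11.5, on mm10; their roles are not given in the sources used here. The authors deposited 1 table per culture system of a normalized signal per gene, which is a gene count divided by 1 factor per library. Dividing by that factor's step gave whole reads for 100% of values (tolerance 0.001), and total reads per library (×1e6) were 19.89 to 44.5. Sampling noise is therefore small for most members, and the spread between replicates sets the precision.

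The fits were made in R 4.3.3 with limma 3.58.1, on log2(value + 1), in genes at 10 or more in at least 2 libraries (13226 genes in the PDA table, 15227 in the E14 table). Read recovery, organoid ratios, list counts and sums, the promoter search and the figures were made in Python 3.11.15. The 4 groups of a table were fitted together, with the trend option, and p-values were adjusted by Benjamini-Hochberg over all genes of a contrast. Alternatives were edgeR 4.0.16 (quasi-likelihood, TMM) and DESeq2 1.42.0 on the recovered reads, quantile normalization, libraries rescaled to the same total, a pseudocount of 8, no filter, a replicate block and each library left out. The fits were tested on data simulated with 1 setting of the spread for all genes and libraries. These data held no replicates that stood apart, so the test does not cover the PDA WT SB505124 and KO TGFβ groups. Organoids have 1 library per condition, so ratios of value + 1 in genes with a mean of 10 or more, a bar of 1.5-fold and exact 95% counting intervals were used. Every one of the 31 members is described, Rreb1, and of each other list the genes with the smallest adjusted p; of marker lists, summed levels. Some genes that this rule names are not reported here. The members and lists were chosen with earlier results of these data known. Promoter sequences are RefSeq's, on GRCm38.p6.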

Additional observations from a re-analysis of the deposited data

Results flagged for a closer look

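These genes are listed because the genotype labels' responses differed in the interaction test (limma, adjusted p under 0.05). Over all genes, 9.71% were called positive and 12.1% negative in the PDA interaction, and 27.1% and 28.6% in the E14 one. In the PDA cells the TGFβ response, KO minus WT on the log2 scale, differed for 10 sterol genes: Hmgcs1 by 0.82, Pmvk by 0.66, Fdps by 0.89, Fdft1 by 0.80, Sqle by 0.82, Lss by 0.48, Msmo1 by 0.78, Nsdhl by 1.12, Ebp by 0.55 and Dhcr7 by 1.28. It differed for 5 fatty acid genes: Acss2 by 0.79, Elovl6 by 1.20, Scd1 by 0.38, Scd2 by 0.86 and Fads1 by 0.38. With each library left out in turn, Hmgcs1, Fdps, Fdft1, Sqle, Nsdhl, Dhcr7, Elovl6 and Scd2 passed the threshold every time.

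In the E14 cells the day 4 response differed upward in KO for Mvd by 0.50, Fdps by 0.78, Fdft1 by 1.58, Tm7sf2 by 1.38 and Dhcr7 by 1.45. It also differed upward for Srebf1 by 1.00, Srebf2 by 1.12, Insig1 by 1.57, Acly by 0.62, Fads2 by 0.32 and Lpin1 by 0.58. The difference was negative for Nsdhl (−0.55), Hsd17b7 (−0.52), Ebp (−0.35) and Stard4 (−0.61). These 15 calls among 31 members are no larger a share than over all genes, and those of Ebp and Fads2 ended under several other settings, as given above.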

How the results depend on the processing

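Of 5120 single-gene values under another setting, 4736 kept their side of the threshold, 182 passed the threshold anew, 195 no longer passed it and 7 turned sign. All 7 turned when WT SB505124 replicate 1 and KO TGFβ replicate 2 were both left out of the PDA table, a setting chosen after the data were seen: Mvk −0.27 and Fasn −0.19 in the WT TGFβ response, Srebf1 0.17 and Srebf2 0.20 in the KO response, Srebf2 0.22 and Fasn 0.27 in the interaction, and Srebf1 0.31 in KO against WT under TGFβ. A further 55 values of 19 genes, none called, had another sign, with a largest size of 0.61. With each library left out in turn these ranges held: Mvk WT response −0.27 to 0.39, Fasn −0.19 to 0.37, Srebf1 KO response −0.50 to 0.17, Srebf2 −0.26 to 0.20, Srebf2 interaction −0.50 to −0.01, Fasn −0.55 to 0.02, Srebf1 KO against WT under TGFβ −0.36 to 0.31.

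The members called ranged over single libraries left out from 8 to 19 in the PDA WT response, 13 to 21 in the KO response, 9 to 17 in the interaction, 12 to 22 in KO against WT under SB505124 and 19 to 25 under TGFβ. In the E14 cells they ranged from 26 to 29 at day 0 and 24 to 26 at day 4, 14 to 20 over time in WT, 15 to 20 in KO and 13 to 18 in the interaction. Leaving out both doubted libraries gave 24 in the WT response, 24 in the interaction and 27 in KO against WT under SB505124. The causes were not tested. Past 2-fold in place of 1.5-fold, the organoid members numbered 0 and 0 for TGFβ without and with dox, and 6 and 8 for dox under SB505124 and TGFβ; a stricter bar leaves fewer by construction.

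Same-numbered replicates showed no clear shared deviation, with correlations of −0.506 to 0.144 in the PDA table and −0.033 to 0.091 in the E14 table. The value of −0.506 was between the PDA WT SB505124 and KO TGFβ groups, which deviated in opposite directions. Whether the numbers pair samples is not settled by these correlations. With the replicate block the members called were 12, 16, 13, 17 and 22 in the PDA contrasts in the order above, and 29, 26, 20, 20 and 15 in the E14 ones. Swapping the KO TGFβ numbers in the block, also chosen after the data were seen, gave 22 in the PDA WT response.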
